A study of Homo sapiens with 21 samples.

Results

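Heme is the iron porphyrin that hemoglobin, cytochromes and catalase carry, and 9 genes of its synthesis were followed here: ALAS1, ALAS2, ALAD, UROS, UROD, CPOX, PPOX, FECH and SLC25A38. They were chosen by symbol, as enzymes of the pathway and the mitochondrial carrier tied to it, and all 9 of 9 were found among the 28008 genes of each count table. The pathway starts and ends in the mitochondrion and runs through the cytosol in between. It joins glycine with succinyl-CoA, builds and trims a porphyrin ring and inserts iron. Developing red cells run it at a far higher rate than other cells, with an erythroid form of the first enzyme, and other cells use a housekeeping form that heme itself holds down. The members cover 7 enzymatic steps with 8 enzyme genes, as ALAS1 and ALAS2 serve the same step. The gene of the remaining step of the pathway is not among the members and was not followed.

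Messenger RNA was counted in 21 libraries of 2 human leukemia lines, in 7 groups of 3 libraries. OCI-AML3 is an acute myeloid leukemia line, and K562 is a line from a chronic myeloid leukemia in blast crisis that is labelled erythroleukemia and known for its erythroid traits. Sequencing batch 1 held OCI-AML3 parental (wild type, no treatment), OCI-AML3 vehicle (wild type, DMSO), OCI-AML3 resistant 1 (labelled as resistant, treated with StAMP, biological replicate 1) and K562 parental (wild type, no treatment) libraries. Batch 2 held OCI-AML3 vehicle (DMSO), resistant 1 and resistant 2 (a further biological replicate, also labelled resistant and treated with StAMP) libraries. The labels do not spell out StAMP; the title of the series speaks of stapled oncolytic peptides. The selection of the resistant cells, and whether each is a clone, were not given in the sources used here, and nothing says that the 3 libraries of a group came from separate cultures, so p-values measure only the spread between these libraries.

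The labelled cell type was checked against its markers. The summed level of 18 myeloid markers was 3199 to 3775 CPM (counts scaled to a common library size) in the parental and vehicle OCI-AML3 libraries and 76.2 to 83.6 CPM in K562. Resistant 1 had 137 to 138 CPM of them in batch 1 and 242 to 283 CPM in batch 2, and resistant 2 had 203 to 226 CPM. The summed level of 21 erythroid markers was 148 to 321 CPM in the parental and vehicle libraries and 6820 to 7105 CPM in K562. Resistant 1 had 6722 to 6929 CPM of these in batch 1 and 2944 to 3525 CPM in batch 2, and resistant 2 had 1928 to 3073 CPM. HOXA9 and HOXA10 were at 0 in all 3 resistant groups. In the parental and vehicle groups, 10 to 12 of the 21 erythroid markers were at 0, the alpha globins and HBB among them. By the tests described below, 17 of the 18 myeloid markers were lower and 1 was higher in each of the 3 comparisons with vehicle. ITGAM was the higher one in resistant 1 of batch 1 (log2 fold change 1.16) and in resistant 2 (0.84). All 9 libraries labelled resistant therefore go against the myeloid label by the sums of both marker lists. What part this has in the results below was not tested. Without these 9 libraries only vehicle against parental and K562 against parental remain, and those are given beside the other comparisons. In bulk RNA, fewer cells of a type and less RNA per cell cannot be told apart.

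All levels below are CPM scaled with TMM factors over the 21 libraries, and levels of different genes are compared only per kilobase of the canonical transcript. Fold changes are on the log2 scale with their standard error (SE), from edgeR quasi-likelihood tests over all genes. A gene was called, and is said to have risen or fallen, when its Benjamini-Hochberg adjusted p over all genes tested was under 0.05. The total count of a library, in mega counts (M), was 14.1 to 21.1 M in batch 1 and 30.7 to 51.3 M in batch 2.

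Promoter sequences are shown first, and whether they bear on how the members moved was not tested. The RefSeq promoter table of GRCh38.p14 held 8 of the 9 members, in 10 windows of 250 bases before a start site, and no entry for UROS. Windows were searched on both strands for GATA letters (GATAA or GATAG after an A or a T), for the core of NF-E2 and AP-1 sites (TGACTCA, which reads TGAGTCA on the other strand), for NRF1 letters (GCATGCGC) and for CACCC-box letters (CCNCNCCC). The 4 windows printed belong to the erythroid synthase ALAS2 and to CPOX, which hold GATA letters, and to UROD and the housekeeping synthase ALAS1, which do not. Capitals mark GATA letters (TTATCT is AGATAA read on the other strand) and the NF-E2 core; CACCC-box letters are left in lower case. ALAS2 is at chrX:55030978-55031227 on the minus strand, CPOX at chr3:98593612-98593861 on the minus strand, UROD at chr1:45012004-45012253 on the plus strand and ALAS1 at chr3:52197833-52198082 on the plus strand, each written 5′ to 3′.
ALAS2: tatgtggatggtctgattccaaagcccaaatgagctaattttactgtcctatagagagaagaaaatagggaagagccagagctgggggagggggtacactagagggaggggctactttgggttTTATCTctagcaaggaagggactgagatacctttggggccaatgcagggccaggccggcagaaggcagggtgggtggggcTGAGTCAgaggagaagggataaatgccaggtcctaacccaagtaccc
CPOX: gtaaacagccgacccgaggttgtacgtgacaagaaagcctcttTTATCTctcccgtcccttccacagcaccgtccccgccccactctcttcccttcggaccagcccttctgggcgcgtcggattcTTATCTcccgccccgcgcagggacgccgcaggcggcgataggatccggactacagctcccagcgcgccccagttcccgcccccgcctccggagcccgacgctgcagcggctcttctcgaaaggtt
UROD: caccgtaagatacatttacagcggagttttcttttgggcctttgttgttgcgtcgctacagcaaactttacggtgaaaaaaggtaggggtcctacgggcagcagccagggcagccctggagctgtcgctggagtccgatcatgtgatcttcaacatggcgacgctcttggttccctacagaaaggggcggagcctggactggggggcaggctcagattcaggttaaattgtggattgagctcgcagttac
ALAS1: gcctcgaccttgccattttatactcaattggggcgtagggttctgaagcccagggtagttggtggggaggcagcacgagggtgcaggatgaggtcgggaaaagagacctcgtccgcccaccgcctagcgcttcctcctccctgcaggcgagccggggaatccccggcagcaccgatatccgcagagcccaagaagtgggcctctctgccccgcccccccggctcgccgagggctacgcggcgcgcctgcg

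GATA letters were in 4 of the 10 member windows and in 22.3% of all 35116 promoters of the table. They lay 127 to 122 bases before the start of ALAS2, and at 2 places, 207 to 202 and 125 to 120 bases before the start, in CPOX. A further copy lay in the second listed window of ALAD, 68 to 63 bases before its start, and another in the second window of PPOX, 63 to 58 bases before its start. The NF-E2 core was in 1 member window, that of ALAS2, 47 to 41 bases before the start, and in 4.20% of all promoters. NRF1 letters were in 0 of the 10 windows and in 2.63% of all promoters. CACCC-box letters were in 7 of the 10 windows and in 53.4% of all promoters. The windows of ALAD overlap and share some CACCC-box letters, and those of PPOX overlap as well, so the windows are not independent. These are matches of letters and not measured binding.

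At the first step, which joins glycine and succinyl-CoA to 5-aminolevulinate, ALAS1 was present in every group, and ALAS2 was added in the resistant and K562 groups. ALAS2, the erythroid synthase, lies on chromosome X from 55009055 to 55030977 (hg38, minus strand, 11 exons). It had 0 counts in all 3 vehicle libraries of batch 1, 0 in all 3 of batch 2, and 1 count in the OCI-AML3 parental group. In resistant 1 of batch 1 it stood at 116, 116 and 110 CPM, in resistant 1 of batch 2 at 37.1, 32.5 and 35.2 CPM, in resistant 2 at 36.2, 30.7 and 31.3 CPM, and in K562 at 39.9, 38.2 and 37.7 CPM. Every library labelled resistant and every K562 library was above every parental and vehicle library. Against a floor of 3 counts over the vehicle group, ALAS2 was at least 2250-fold higher in resistant 1 of batch 1, at least 1262-fold higher in resistant 1 of batch 2 and at least 1179-fold higher in resistant 2. K562 exceeded parental 1995-fold, with an exact 95% counting interval of 358 to 78846 that covers counting error only. The adjusted p of edgeR for ALAS2 was 1.2e-26 for resistant 1 of batch 1, 2.3e-12 for resistant 1 of batch 2 and 2.4e-12 for resistant 2.

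ALAS1, the housekeeping synthase on chromosome 3 (52198086 to 52214327, plus strand, 12 exons), moved the other way. Its levels were 84.4, 83.2 and 80.2 CPM in parental, 100.3, 102 and 107 CPM in vehicle of batch 1 and 112, 103 and 97.3 CPM in vehicle of batch 2. They were 59.7, 59.5 and 53.1 CPM in resistant 1 of batch 1, 54.3, 49.99 and 67.6 CPM in resistant 1 of batch 2, 54.5, 40.8 and 73.9 CPM in resistant 2 and 41.3, 41.8 and 40.4 CPM in K562. No resistant or K562 library reached the lowest parental or vehicle library. The fall was close in size in the 3 comparisons with vehicle: -0.89 (SE 0.056, adjusted p = 3.4e-14, edgeR) in resistant 1 of batch 1, -0.89 (SE 0.18, adjusted p = 4.9e-04) in resistant 1 of batch 2 and -0.90 (SE 0.18, adjusted p = 4.4e-04) in resistant 2. The last group was the most spread, and its replicate 3 was the highest.

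Per kilobase, the summed synthase messages differed less than their parts. ALAS1 and ALAS2 together were at 33.0 to 47.3 CPM per kilobase in the libraries of every group but resistant 1 of batch 1, which stood at 78.9 to 85.0. In resistant 1, ALAS2 made up 70.4 to 71.7% of that sum in batch 1 and 38.9 to 45.6% in batch 2. Its share was 34.2 to 48.0% for resistant 2 and 52.8 to 54.2% for K562, and at most 0.094% in a parental library. The sums of resistant 1 and resistant 2 in batch 2 overlapped those of their vehicle libraries, at 41.0 to 47.1. K562, at 36.4 to 37.9, lay above parental, at 33.8 to 35.5, and below vehicle of batch 1, at 42.2 to 45.1.

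**Figure D1:**
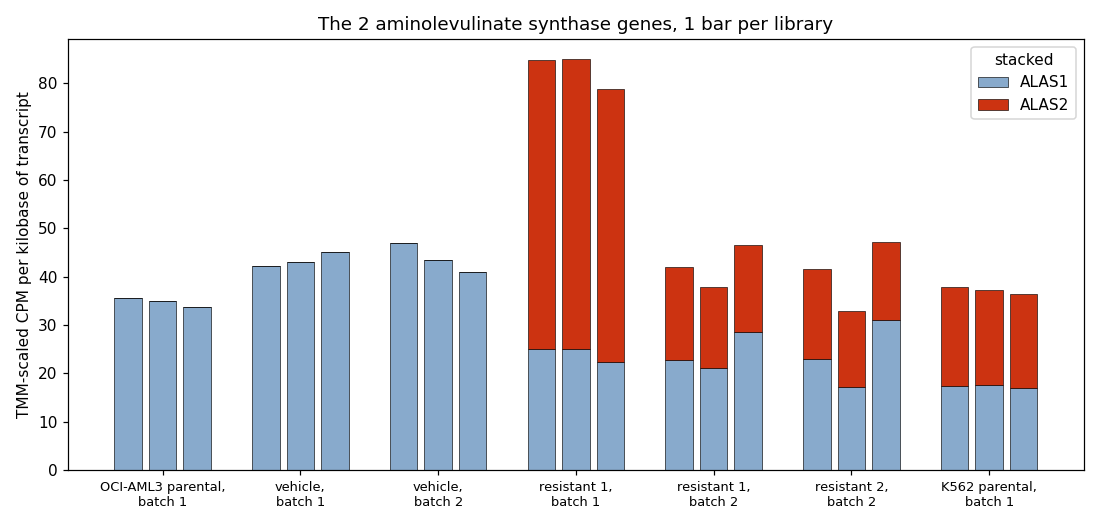
Stacked bars give ALAS1 and ALAS2 in TMM-scaled CPM per kilobase of transcript, 1 bar for each of the 21 libraries in the order of replicate number within 7 groups. The 3 bars of resistant 1 in batch 1 reach 78.9 to 85.0, and all other bars 33.0 to 47.3, with ALAS2 seen only in the resistant and K562 groups at this scale.

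SLC25A38 codes for the carrier of the inner mitochondrial membrane that brings in glycine for this step, and its loss causes a congenital sideroblastic anemia. It was at 23.4, 21.4 and 23.9 CPM in parental, 21.2, 24.1 and 25.9 CPM in vehicle of batch 1 and 31.3, 30.9 and 39.9 CPM in vehicle of batch 2. The resistant groups stood at 45.0, 42.6 and 42.9 CPM (resistant 1, batch 1), 64.5, 50.2 and 70.1 CPM (resistant 1, batch 2) and 57.9, 52.9 and 51.7 CPM (resistant 2), and K562 at 51.8, 49.1 and 51.7 CPM. Resistant and vehicle libraries of a batch did not overlap. The rise was 0.83 (SE 0.074, adjusted p = 6.1e-11, edgeR) in resistant 1 of batch 1, 0.83 (SE 0.15, adjusted p = 1.1e-04) in resistant 1 of batch 2 and 0.66 (SE 0.15, adjusted p = 8.3e-04) in resistant 2.

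ALAD, the cytosolic zinc enzyme that joins a pair of aminolevulinate molecules to porphobilinogen, fell the most of the members. It lies on chromosome 9 from 113386312 to 113401290. Parental libraries had 74.7, 67.9 and 69.0 CPM, vehicle libraries 66.8, 69.3 and 68.1 CPM in batch 1 and 80.7, 82.6 and 90.7 CPM in batch 2. Resistant 1 had 26.7, 24.1 and 26.8 CPM in batch 1 and 27.6, 23.1 and 23.5 CPM in batch 2, resistant 2 had 16.7, 14.7 and 17.6 CPM and K562 had 21.4, 23.2 and 22.1 CPM. The lowest OCI-AML3 library without the resistant label was more than double the highest resistant or K562 library. The fall was -1.45 (SE 0.063, adjusted p = 6.7e-18, edgeR) in resistant 1 of batch 1, -1.80 (SE 0.13, adjusted p = 5.9e-09) in resistant 1 of batch 2 and -2.38 (SE 0.13, adjusted p = 3.0e-10) in resistant 2. The gene that follows the synthases in the pathway was thus lower in the groups where ALAS2 was detected at 30.7 CPM or more.

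UROS closes the linear tetrapyrrole into uroporphyrinogen III and was not called in resistant 1 of batch 1. Its levels were 41.3, 39.5 and 43.2 CPM in parental, 40.2, 43.7 and 42.1 CPM in vehicle of batch 1 and 41.4, 45.2 and 43.1 CPM in vehicle of batch 2. Resistant 1 had 39.5, 41.5 and 43.1 CPM in batch 1 and 36.4, 33.6 and 31.8 CPM in batch 2, resistant 2 had 29.6, 33.8 and 32.4 CPM and K562 had 26.1, 27.2 and 24.8 CPM. Resistant 1 and vehicle of batch 1 overlapped, and differed by -0.07 on the log2 scale (SE 0.063, adjusted p = 0.273, edgeR). UROS fell in batch 2, by 0.37 (SE 0.11, adjusted p = 0.0073) in resistant 1 and by 0.45 (SE 0.11, adjusted p = 0.0020) in resistant 2. With library totals in place of TMM factors neither of these falls passed the threshold, at -0.19 (adjusted p = 0.152, edgeR) and -0.17 (adjusted p = 0.191).

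UROD, the cytosolic decarboxylase that trims uroporphyrinogen to coproporphyrinogen and whose deficiency underlies porphyria cutanea tarda, had the greatest change after ALAS2. It lies on chromosome 1 from 45010950 to 45015575. Parental libraries had 26.7, 27.0 and 32.6 CPM, vehicle libraries 27.9, 31.6 and 32.2 CPM in batch 1 and 25.8, 22.4 and 23.7 CPM in batch 2. Resistant 1 had 237, 248 and 227 CPM in batch 1 and 202, 230.5 and 190.2 CPM in batch 2, resistant 2 had 137, 163 and 125 CPM and K562 had 377, 366 and 373 CPM. The 3 resistant groups and K562 did not overlap with each other or with the parental and vehicle libraries, except resistant 1 of the 2 batches. The rise was 2.91 (SE 0.069, adjusted p = 1.5e-23, edgeR) in resistant 1 of batch 1, 3.09 (SE 0.13, adjusted p = 1.7e-11) in resistant 1 of batch 2 and 2.54 (SE 0.13, adjusted p = 1.2e-10) in resistant 2, or 7.51-, 8.51- and 5.83-fold. The gene spans of HECTD3 and UROD, introns included, overlap by 375 bases on opposite strands. HECTD3 also rose, by 1.503 (SE 0.064, adjusted p = 5.0e-18), 1.34 (SE 0.17, adjusted p = 3.7e-06) and 0.99 (SE 0.17, adjusted p = 7.0e-05). The kit marks strand, but the strand setting of the counting was not given in the sources used here. A share of reads in the overlap could therefore be split between HECTD3 and UROD.

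CPOX, the oxidase of the mitochondrial intermembrane space that turns coproporphyrinogen into protoporphyrinogen, rose in resistant 1 of batch 1. Its levels were 38.7, 36.8 and 33.9 CPM in parental, 47.0, 45.6 and 48.1 CPM in vehicle of batch 1 and 48.5, 44.9 and 42.6 CPM in vehicle of batch 2. Resistant 1 had 115, 105 and 108 CPM in batch 1 and 60.2, 54.5 and 52.8 CPM in batch 2, resistant 2 had 47.7, 57.5 and 33.1 CPM and K562 had 64.1, 74.2 and 66.7 CPM. Resistant 1 lay above vehicle in both batches, while resistant 2 straddled it. The rise was 1.18 (SE 0.058, adjusted p = 1.3e-16, edgeR) in resistant 1 of batch 1. The log2 fold change was 0.28 (SE 0.16, adjusted p = 0.131) in resistant 1 of batch 2 and 0.01 (SE 0.16, adjusted p = 0.964) in resistant 2, and neither was called. Without resistant 2 replicate 3, the lowest CPOX library of its group, the value for resistant 1 of batch 2 was 0.28 and passed the threshold (adjusted p = 0.0439); it also passed in a fit of the compared groups only (0.29, adjusted p = 0.0243) and with library totals (0.46, adjusted p = 0.0147).

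PPOX, the mitochondrial flavoenzyme that oxidizes protoporphyrinogen to protoporphyrin, rose in all 3 comparisons with vehicle. It lies on chromosome 1 from 161166056 to 161178013. Its levels were 14.2, 13.5 and 16.9 CPM in parental, 16.4, 16.7 and 14.2 CPM in vehicle of batch 1 and 8.84, 8.51 and 8.54 CPM in vehicle of batch 2. Resistant 1 had 34.8, 33.6 and 34.4 CPM in batch 1 and 27.1, 21.1 and 20.4 CPM in batch 2, resistant 2 had 14.7, 16.5 and 13.96 CPM and K562 had 29.4, 25.8 and 27.3 CPM. Resistant 2 lay above the vehicle libraries of its own batch and at the height of those of batch 1. The rise was 1.06 (SE 0.083, adjusted p = 3.8e-12, edgeR), 1.38 (SE 0.15, adjusted p = 8.7e-07) and 0.79 (SE 0.15, adjusted p = 2.2e-04) in resistant 1 of batch 1, resistant 1 of batch 2 and resistant 2. The gene spans of B4GALT3 and PPOX, introns included, overlap by 6659 bases on opposite strands. The canonical PPOX transcript has 1733 bases, and overlap of exons was not measured. PPOX is uncertain for that reason. B4GALT3 itself was at -0.27 (SE 0.060, adjusted p = 1.7e-04) in resistant 1 of batch 1, -0.04 (SE 0.14, adjusted p = 0.793) in resistant 1 of batch 2 and 0.05 (SE 0.14, adjusted p = 0.756) in resistant 2.

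FECH, the ferrochelatase that inserts iron into protoporphyrin at the inner mitochondrial membrane, rose as well. It lies on chromosome 18 from 57544377 to 57586732. Its levels were 33.0, 41.4 and 35.8 CPM in parental, 39.7, 37.9 and 35.7 CPM in vehicle of batch 1 and 56.0, 63.2 and 59.4 CPM in vehicle of batch 2. Resistant 1 had 147, 149.5 and 144 CPM in batch 1 and 98.1, 112 and 104 CPM in batch 2. Resistant 2 had 71.4, 104 and 72.1 CPM and K562 had 129, 137 and 139.7 CPM. Each resistant group lay above the vehicle libraries of its batch. The rise was 1.91 (SE 0.065, adjusted p = 3.0e-20, edgeR) in resistant 1 of batch 1, 0.79 (SE 0.14, adjusted p = 1.0e-04) in resistant 1 of batch 2 and 0.45 (SE 0.14, adjusted p = 0.0076) in resistant 2.

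**Figure D2:**
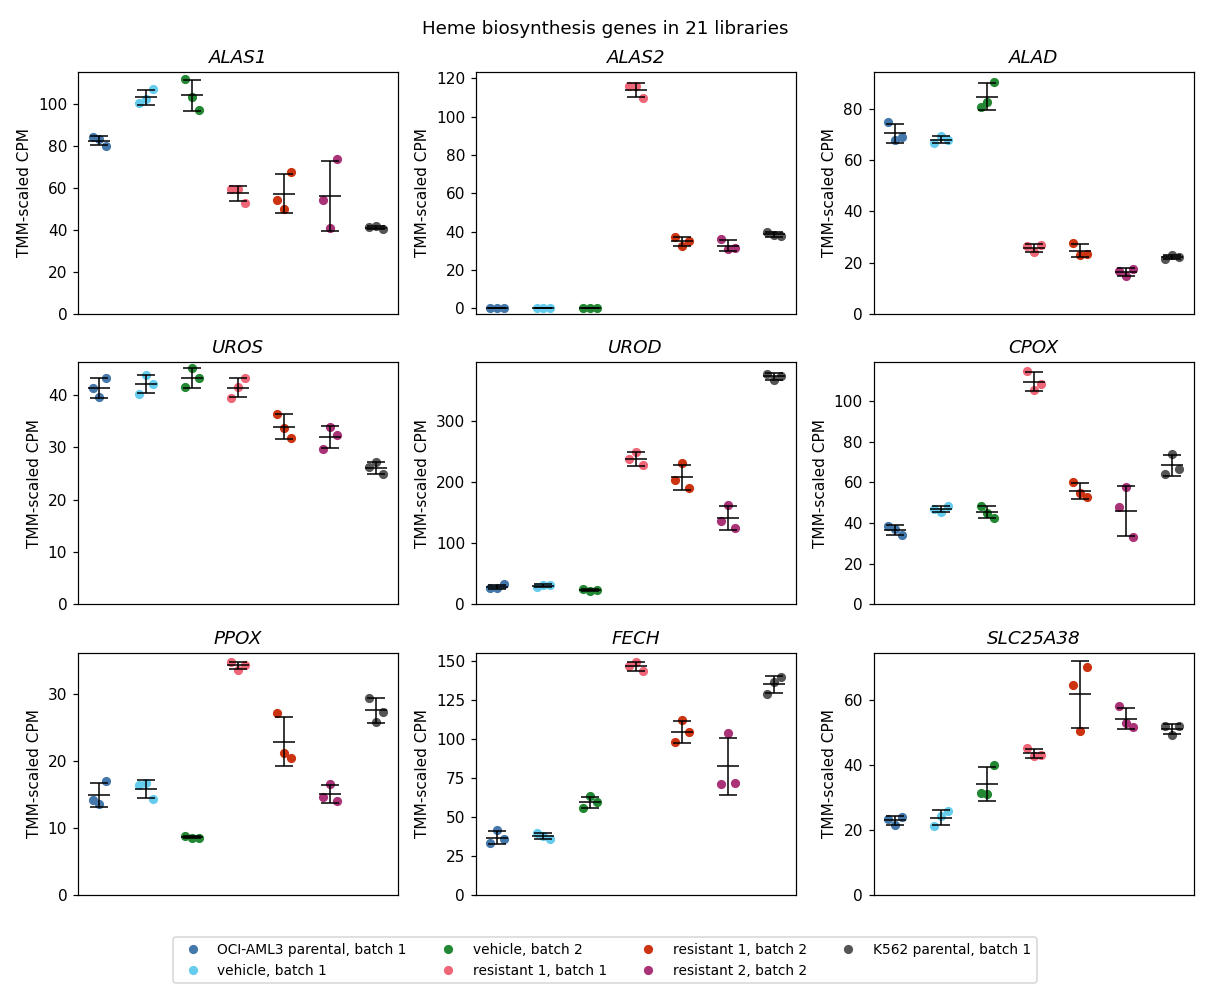
Each panel gives 1 gene in TMM-scaled CPM on a linear axis. Points are the 21 libraries in 7 colored groups, and bars are group means ± SD (n = 3). ALAS1 and ALAD are lower, and ALAS2, UROD, FECH and SLC25A38 higher, in every resistant and K562 library than in every parental and vehicle library.

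Against vehicle, 8 of the 9 members were called in resistant 1 of batch 1, 6 higher and 2 lower. Over all 14505 genes tested there, 44% were called higher and 42.1% lower, so a call alone says little about a member. The median log2 fold change was 1.06 over the members and 0.02 over all genes. In resistant 1 of batch 2, 5 members rose and 3 fell, where 39.9% of the 15218 genes tested were called higher and 35.8% lower; the medians were 0.79 and 0.07. In resistant 2, 5 rose and 3 fell, where 40.2% of genes were called higher and 35.9% lower; the medians were 0.45 and 0.07. ALAS2, UROD, PPOX, FECH and SLC25A38 rose in all 3 comparisons, and ALAS1 and ALAD fell in all 3. The comparisons of batch 2 share their vehicle libraries. The libraries of resistant and vehicle did not overlap for 8, 9 and 8 of the 9 members in turn, and for 86.5, 79.4 and 78.3% of all genes.

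TMM factors and library totals gave different centers in batch 2. With totals only, a scaling chosen after seeing the data, the median of all genes moved up by 0.19 in resistant 1 of batch 2, by 0.28 in resistant 2 and by 0.15 in the difference between batches. The share of higher genes among those called went from 52.9 to 63.5% in resistant 2 against vehicle. Of the member calls against vehicle, this scaling changed those of UROS and CPOX given above.

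**Figure D3:**
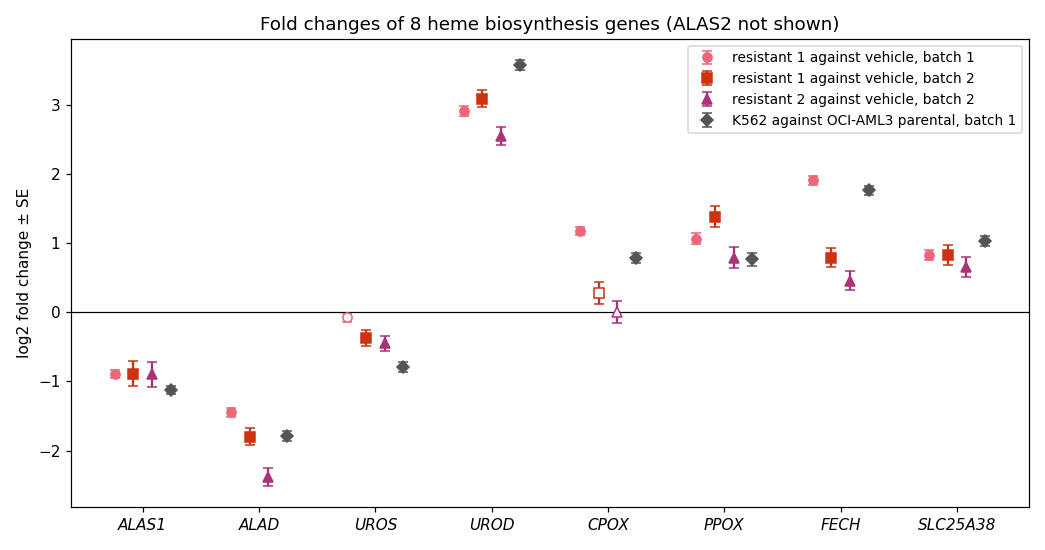
Log2 fold changes ± SE of 8 members from edgeR, for resistant 1 and resistant 2 against the vehicle libraries of their batch and for K562 against OCI-AML3 parental. Open symbols were not called; ALAS2 is not shown because its vehicle counts were 0. UROD lies between 2.54 and 3.57 in all 4 comparisons, and FECH and CPOX are higher in resistant 1 of batch 1 than in batch 2.

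The rise of resistant 1 over vehicle was not equal in the 2 batches for FECH and CPOX. The interaction of resistant 1 with batch was tested for 8 members, since ALAS2 had 0 counts in both vehicle groups, and 33.2% of the 15209 genes tested were called. FECH had a log2 difference of -1.14 (SE 0.11, adjusted p = 6.6e-07, edgeR) and CPOX of -0.92 (SE 0.11, adjusted p = 8.7e-06), both meaning a smaller rise in batch 2. ALAD, at -0.37 (SE 0.12, adjusted p = 0.0275), fell further in batch 2, and UROS was at -0.32 (SE 0.12, adjusted p = 0.0421). This fit takes 1 spread per gene over both batches, while the SE of members against vehicle were larger in batch 2. The SE of the FECH and CPOX differences is below that of their batch 2 change alone, 0.14 and 0.16. The SE and adjusted p of these calls are thus likely too small. The calls of ALAD and UROS were lost with DESeq2, with RLE size factors and with library totals. Both were also lost when resistant 1 replicate 3 of either batch, vehicle replicate 1 or 3 of batch 1 or vehicle replicate 3 of batch 2 was left out, which left 2 members called. With library totals the share of higher genes among those called went from 45.1 to 65.6%, and PPOX was called at 0.46 (adjusted p = 0.0414). ALAS1, UROD, PPOX and SLC25A38 were at -0.01 (SE 0.14), 0.16 (SE 0.12), 0.30 (SE 0.16) and -0.01 (SE 0.18) and were not called. ALAS2 could be compared only by level: resistant 1 averaged 114 ± 3.63 CPM in batch 1 and 34.9 ± 2.34 CPM in batch 2 (SD, n = 3), a ratio of 3.26. The erythroid marker sum also differed between these groups, at 6722 to 6929 CPM and 2944 to 3525 CPM, and its part in these differences was not tested. Batch is the sequencing batch of the labels, and whether the cells differed in culture cannot be told apart from it.

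Resistant 2 had lower levels of 3 members than resistant 1 in batch 2, and no member was higher. ALAD was lower by a log2 change of -0.58 (SE 0.12, adjusted p = 0.0039, edgeR), UROD of -0.55 (SE 0.12, adjusted p = 0.0044) and PPOX of -0.59 (SE 0.15, adjusted p = 0.0090), and the libraries of the 2 groups did not overlap for these 3. For all genes, 24.4% were called and 37.5% did not overlap. ALAS2 was at -0.08 (SE 0.13, adjusted p = 0.698) and FECH at -0.34 (SE 0.14, adjusted p = 0.0864). With the replicate number as a block, which pairs these libraries, FECH was called as well, at -0.35 (adjusted p = 0.0226, edgeR), and the count was 4. Leaving out resistant 2 replicate 2, the highest of its group for CPOX and FECH, raised the count to 5, with CPOX at -0.45 (adjusted p = 0.0306) and FECH at -0.53 (adjusted p = 0.0021). Leaving out resistant 1 replicate 1, the highest PPOX library, left PPOX at -0.45 (adjusted p = 0.0603). The split of all genes called moved from 51.0 to 65.1% higher with library totals.

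Vehicle and parental OCI-AML3 differed for 2 members. ALAS1 was higher with vehicle by 0.30 (SE 0.055, adjusted p = 8.4e-05, edgeR) and CPOX by 0.34 (SE 0.063, adjusted p = 1.0e-04), where 37% of all genes were called. The libraries of the 2 groups did not overlap for these 2 members, as for 46% of all genes. The other members with counts lay between -0.07 and 0.08 and were not called. For ALAS2, with 0 and 1 counts, no fold is given.

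K562 differed from OCI-AML3 parental at all 9 members, 6 higher and 3 lower, where 42.6% of the 13883 genes tested were called higher and 42.5% lower. UROD was higher by 3.57 (SE 0.069, adjusted p = 9.3e-21, edgeR), FECH by 1.76 (SE 0.070, adjusted p = 2.2e-15) and SLC25A38 by 1.03 (SE 0.071, adjusted p = 1.5e-11). CPOX was at 0.78 (SE 0.069) and PPOX at 0.77 (SE 0.094), both called. ALAD was lower by -1.79 (SE 0.068, adjusted p = 4.8e-16), ALAS1 by -1.13 (SE 0.058, adjusted p = 1.1e-13) and UROS by -0.79 (SE 0.071, adjusted p = 1.6e-09). The libraries of the 2 lines did not overlap for any member, and for 85.6% of all genes. The call had the same sign as in resistant 1 of batch 1 for 8 members, all but UROS, and for 76.1% of the 13812 genes tested in both.

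Resistant 1 of batch 1 and K562, set against each other in the same batch, were called different at all 9 members, where 59.8% of the 13006 genes tested were. ALAS2 was 1.59 higher in resistant 1 (SE 0.053, adjusted p = 3.9e-16, edgeR), CPOX 0.71 (SE 0.054), UROS 0.69 (SE 0.067), ALAS1 0.51 (SE 0.060), PPOX 0.34 (SE 0.068), ALAD 0.24 (SE 0.073) and FECH 0.15 (SE 0.044). UROD was lower by -0.62 (SE 0.043, adjusted p = 6.4e-11) and SLC25A38 by -0.20 (SE 0.057, adjusted p = 0.0051). The call of FECH was lost without K562 replicate 1, at 0.11 (adjusted p = 0.0673). Resistant 1 libraries of batch 1 thus had more ALAS2 and less UROD than K562 libraries. Libraries of these 2 groups did not overlap for any member, where 63.4% of all genes did not overlap. ALAS2 in resistant 1 of batch 2, at 32.5 to 37.1 CPM, was below K562, at 37.7 to 39.9 CPM. The share of higher genes among those called was 52.3% with TMM factors and 62.7% with library totals.

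The order of the members per kilobase changed between the kinds of library. In parental and in both vehicle groups ALAS1 was highest, at 34.8, 43.5 and 43.8 CPM per kilobase, followed by UROS at 30.9, 31.4 and 32.3. In all 3 resistant groups and K562 UROD was highest, at 199 in resistant 1 of batch 1, 174 in resistant 1 of batch 2, 118 in resistant 2 and 312 in K562. ALAD was the lowest member there, at 8.26, 7.90, 5.23 and 7.10 CPM per kilobase in the same order. The next member by its mean was ALAS2 in resistant 1 of batch 1, at 58.7, clear of CPOX at 40.4. In the other 3 groups the next members overlapped: SLC25A38 (23.9 to 33.4) and UROS (23.8 to 27.2) in resistant 1 of batch 2, SLC25A38 (24.6 to 27.6) and ALAS1 (17.2 to 31.1) in resistant 2, and CPOX (23.7 to 27.4) and SLC25A38 (23.4 to 24.7) in K562. In K562, ALAS2 (19.4 to 20.5) and UROS (18.6 to 20.4) overlapped, as did ALAS1 and FECH (17.0 to 17.6 and 16.8 to 18.2).

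**Figure D4:**
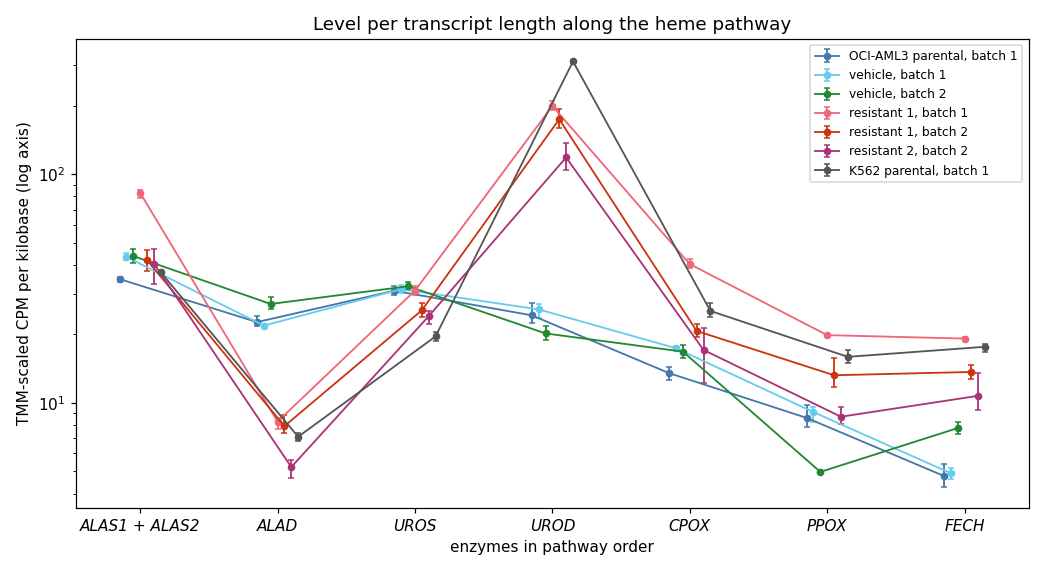
Lines join the group means of the member enzymes in pathway order, in TMM-scaled CPM per kilobase on a log axis, with ALAS1 and ALAS2 summed. The step without a member is left out. Bars run from the lowest to the highest of 3 libraries. The resistant and K562 groups dip at ALAD (5.23 to 8.26) and peak at UROD (118 to 312), and the parental and vehicle groups lie between 20.1 and 32.3 at both UROS and UROD.

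Across groups, each gene had its own order. ALAS1 was highest in vehicle of both batches, which overlapped, then in parental, then in the 3 resistant groups, which overlapped with each other, and last in K562, which overlapped with resistant 2. ALAS2 was highest in resistant 1 of batch 1, then K562, then resistant 1 of batch 2 and resistant 2, which overlapped.

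Likeness of pattern was measured over the 7 group means of log2(CPM + 1), each centered on its mean, among 11950 genes, as a root mean square difference. Among the genes most like ALAS1 were SLC2A11 (0.06) and CEP128 (0.09). ALAS2 was most like ZBED6CL (0.30), ADAMTS14 (0.31) and OSBP2 (0.32), all 3 under 1 CPM in the parental and vehicle groups and at 31.8 to 91.2 CPM in the resistant and K562 groups. UROD was most like CDKN1C (0.20), CRACR2B (0.23) and DHRS11 (0.23). Among the members the closest pairs were ALAS1 with UROS (0.29) and CPOX with PPOX (0.33), and the farthest was ALAS2 with ALAD (3.64). The pseudocount narrows the differences of genes near 0, so values of low and high genes are not on an equal footing.

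Erythroid transcription factors rose in nearly all cases, and GATA1 and KLF1 are also among the erythroid markers above. Of 10 tested, 9 rose and 1 fell in each of the 3 comparisons with vehicle. BACH2, a factor not confined to erythroid cells, is among the 9. Of all genes, 44% rose and 42.1% fell in resistant 1 of batch 1. The shares were 39.9 and 35.8% in resistant 1 of batch 2, and 40.2 and 35.9% in resistant 2. In resistant 1 of batch 1 the median of the 10 was 4.28, where that of all genes was 0.02. GATA1, the zinc finger factor that binds GATA letters, averaged 211 ± 15.1 CPM in resistant 1 of batch 1 and 0.017 ± 0.029 CPM in vehicle (SD, n = 3), with 176 ± 5.42 CPM in resistant 1 of batch 2 and 166 ± 10.2 CPM in resistant 2. GFI1B, an erythroid and megakaryocytic repressor, averaged 69.2 ± 4.42, 60.4 ± 7.43 and 68.6 ± 10.1 CPM in those groups (SD, n = 3) and had 0 counts in vehicle. LMO2, a bridging partner of GATA1, fell by 0.35 (SE 0.051), 1.52 (SE 0.17) and 1.52 (SE 0.17).

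The counts of the lists that follow stand against all genes, of which 44% were called higher and 42.1% lower in resistant 1 of batch 1, 39.9 and 35.8% in resistant 1 of batch 2, and 40.2 and 35.9% in resistant 2. Among transporters of heme and its precursors, 9 of 17 tested rose and 6 fell in resistant 1 of batch 1, 7 rose and 8 fell in resistant 1 of batch 2, and 6 rose and 7 fell in resistant 2. SLC48A1, which moves heme out of lysosomes, rose by 2.89 (SE 0.087), 3.00 (SE 0.15) and 2.64 (SE 0.15) in that order. ABCB6, a porphyrin transporter, rose by 2.75 (SE 0.098), 3.54 (SE 0.18) and 3.81 (SE 0.18). TSPO, an outer mitochondrial membrane protein that binds porphyrins, fell by 1.93 (SE 0.084), 1.62 (SE 0.15) and 1.95 (SE 0.15). FLVCR2 was at 4.83 ± 0.42 CPM in vehicle and 0.077 ± 0.047 CPM in resistant 1 of batch 1 (SD, n = 3) and fell in all 3. With library totals 8 transporters rose and 8 fell in resistant 1 of batch 2, and 8 rose and 6 fell in resistant 2.

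Heme breakdown opens the ring with a heme oxygenase and reduces the product with a biliverdin reductase. Both reductases rose: BLVRB by 4.05 (SE 0.074), 4.56 (SE 0.19) and 4.05 (SE 0.19), from 12.20 ± 1.26 to 208 ± 6.76 CPM in batch 1 (SD, n = 3), and BLVRA by 1.82 (SE 0.072), 2.90 (SE 0.14) and 2.25 (SE 0.13). The oxygenases did not: HMOX2, the constitutive form, fell by 0.79 (SE 0.057) and 0.76 (SE 0.15) in resistant 1 of the 2 batches and was at -0.14 (SE 0.15, adjusted p = 0.433, edgeR) in resistant 2. HMOX1, the inducible form, averaged 1.71 ± 0.23 CPM in vehicle and 0.031 ± 0.054 CPM in resistant 1 of batch 1 (SD, n = 3), where it fell, and did not pass the low-count filter in batch 2.

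Of 8 genes that sense heme or control the synthases, 5 rose and 2 fell in resistant 1 of batch 1 (44 and 42.1% of all genes), 2 rose and 2 fell in resistant 1 of batch 2, and 3 rose and 3 fell in resistant 2 (39.9 and 35.8%, and 40.2 and 35.9%, of all genes). BACH1, a repressor that heme inactivates, rose by 1.16 (SE 0.066), 0.81 (SE 0.14) and 0.36 (SE 0.14). EIF2AK1, the heme-regulated kinase that lowers globin translation, rose by 0.91 (SE 0.046), 0.85 (SE 0.11) and 0.66 (SE 0.11). NRF1, a factor for nuclear genes of the mitochondrion, fell by 0.55 (SE 0.069), 0.54 (SE 0.12) and 0.84 (SE 0.12). LONP1, a mitochondrial protease that degrades ALAS1, fell by 0.16 (SE 0.051) in resistant 1 of batch 1, where vehicle was 0.56 (SE 0.052) above parental, was at 0.13 (SE 0.13, adjusted p = 0.379, edgeR) in resistant 1 of batch 2 and rose by 0.58 (SE 0.13) in resistant 2. With library totals 6 rose and 1 fell in resistant 1 of batch 2, where LONP1 was called at 0.31 (adjusted p = 0.0430, edgeR), and 5 rose and 2 fell in resistant 2.

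Iron-sulfur cluster assembly serves ferrochelatase, which carries a cluster. Of its 14 genes 9 rose and 2 fell in resistant 1 of batch 1 (44 and 42.1% of all genes), 9 rose and 3 fell in resistant 1 of batch 2, and 8 rose and 1 fell in resistant 2 (39.9 and 35.8%, and 40.2 and 35.9%, of all genes). BOLA3 rose by 1.62 (SE 0.078), 1.45 (SE 0.16) and 1.29 (SE 0.16). ISCA1 fell by 0.30 (SE 0.072), 1.27 (SE 0.13) and 0.99 (SE 0.13). HSCB fell by 0.55 (SE 0.12) and 0.57 (SE 0.21) and was at -0.46 (SE 0.21, adjusted p = 0.0625, edgeR) in resistant 2. With library totals 9 rose and 1 fell in resistant 1 of batch 2, where HSCB was not called at -0.38 (adjusted p = 0.119, edgeR), and 12 rose and 1 fell in resistant 2.

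Of 12 genes that supply glycine and succinyl-CoA, 4 rose and 7 fell in resistant 1 of batch 1 (44 and 42.1% of all genes), 4 rose and 4 fell in resistant 1 of batch 2, and 5 rose and 6 fell in resistant 2 (39.9 and 35.8%, and 40.2 and 35.9%, of all genes). SUCLG1 and SUCLA2, subunits of succinyl-CoA synthetase, rose by 0.95 (SE 0.057) and 0.91 (SE 0.065) in resistant 1 of batch 1, by 0.94 (SE 0.11) and 0.53 (SE 0.12) in resistant 1 of batch 2 and by 0.64 (SE 0.11) and 0.44 (SE 0.12) in resistant 2. In batch 1 the vehicle libraries were themselves above parental for both of the serine synthesis genes named next, by 1.81 (SE 0.048) for PSAT1 and by 2.38 (SE 0.066) for PHGDH, both called. PSAT1 averaged 119, 422 and 136 CPM in parental, vehicle and resistant 1, and PHGDH 37.8, 199 and 52.97 CPM, so resistant 1 lay below vehicle and above parental by its mean. Against vehicle PSAT1 fell by 1.68 (SE 0.048), 1.03 (SE 0.13) and 0.52 (SE 0.13). PHGDH, the first enzyme of serine synthesis, fell by 1.96 (SE 0.063) in resistant 1 of batch 1 and by 0.38 (SE 0.12) in resistant 2, and was at 0.08 (SE 0.12, adjusted p = 0.547, edgeR) in resistant 1 of batch 2. With library totals 5 rose and 3 fell in resistant 1 of batch 2 and 6 rose and 3 fell in resistant 2, where PHGDH was at -0.10 (adjusted p = 0.472, edgeR) and PSAT1 at -0.24 (adjusted p = 0.106) and neither was called.

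Of 3 genes that put heme to mitochondrial use, HCCS, which attaches heme to cytochrome c, rose by 1.07 (SE 0.063), 0.45 (SE 0.15) and 0.58 (SE 0.15). COX15, of heme A synthesis, fell by 0.37 (SE 0.052), 0.84 (SE 0.11) and 0.92 (SE 0.11). COX10, the preceding enzyme, was at 0.11 (SE 0.082), 0.13 (SE 0.14) and 0.23 (SE 0.14) and was not called. With library totals COX10 rose in batch 2, by 0.32 (adjusted p = 0.0445, edgeR) in resistant 1 and by 0.51 (adjusted p = 0.0030) in resistant 2.

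**Figure D5:**
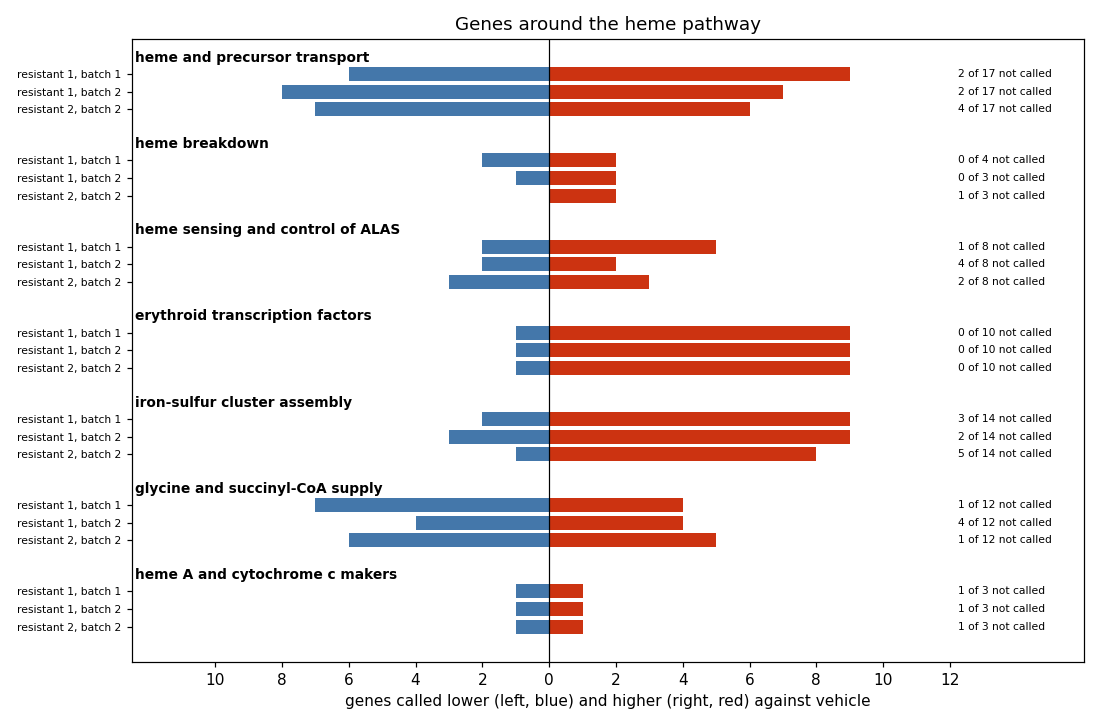
Bars count the genes of 7 lists around the pathway that were called higher (right) or lower (left) against vehicle in 3 comparisons, with the number not called at the right edge. The erythroid transcription factors have 9 higher and 1 lower in each comparison, and the transporters have both directions in all 3.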

How the data were processed

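The authors deposited raw counts per gene symbol, 1 table per sequencing batch, and not normalized. Alignment to hg38, counting in the VIPER pipeline and testing with DESeq2 1.22.1 are named per the submitters' processing notes. The annotation and the strand setting were not given in the sources used here. Both tables held whole counts for 28008 genes, and 0 columns had no sample.

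Members and lists were chosen with earlier results of these data known. Counts were fitted with edgeR 4.0.16 in R 4.3.3: TMM factors, filterByExpr, robust quasi-likelihood fits of group means and two-sided F tests, with Benjamini-Hochberg adjustment over the genes tested. SE is the log2 fold change over the square root of F. OCI-AML3 groups of a batch were fitted together, and comparisons with K562 used 6 libraries. Printed CPM are scaled by TMM factors over all 21 libraries; per-kilobase values use canonical transcripts of GENCODE v44. Where a vehicle group had 0 counts, the fold is a bound against 3 counts over the group.

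All 9 members were named, and from each list up to 2 called genes that rose most and 2 that fell most in resistant 1 of batch 1, or a list of up to 4 genes whole. BACH2 was named in addition. Of the patterns most like a member, 3 genes at 5 CPM or more in a group were named. Likeness used a pseudocount of 1 CPM. Some genes that these rules name are not reported here. Tested on simulated counts with 200 genes changed 1 log2 unit, the fit of resistant 1 against vehicle recovered 89.5% of them in batch 1 (14153 genes) and 87% in batch 2 (14935 genes). The simulated spread was set equal in both batches, and far more genes were called in the data than were changed here. Recovery at the spread and the number of changes of these data was not tested. Chi-square per degree of freedom between replicates was 1.81 to 7.18 in batch 1 and 20.8 to 84.5 in batch 2, so no libraries were counted as duplicates. SE and calls of the 2 batches are thus not on an equal footing. Alternatives were DESeq2 1.42.0, RLE size factors, no filter, the compared groups alone, the replicate block, each library left out and, chosen after seeing the data, library totals. Deviations from group means of same-numbered libraries correlated at 0.212 to 0.266 between vehicle and resistant 1 of batch 2 and at 0.159 to 0.391 between resistant 1 and resistant 2. By the data alone, these numbers may mark pairs. Such deviations correlated at 0.085 to 0.211 between vehicle and resistant 2 and at -0.356 to 0.310 in batch 1, where pairs were not assumed. In batch 2, libraries of different numbers correlated at -0.419 to 0.323, and 16 of 18 best matches had the same number. The reported fits held no replicate block, so a pairing in batch 2, if real, is left out of their SE.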

Additional observations from a re-analysis of the deposited data

Results flagged for a closer look

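For 4 of the 8 members tested, the change of resistant 1 against vehicle was called unequal in the sequencing batches by a test of the difference itself. Of all 15209 genes tested, 33.2% were called. This test takes 1 spread per gene over both batches, so its adjusted p for these members are likely too small. The edgeR interaction, batch 2 minus batch 1 on the log2 scale, was -1.14 for FECH (adjusted p = 6.6e-07) and -0.92 for CPOX (adjusted p = 8.7e-06). FECH rose by 1.91 in batch 1 and by 0.79 in batch 2, and CPOX was at 1.18 and 0.28. The interaction was -0.37 for ALAD (adjusted p = 0.0275), which fell by 1.45 and by 1.80, and -0.32 for UROS (adjusted p = 0.0421), which was at -0.07 and -0.37. The calls of ALAD and UROS were lost with DESeq2, with RLE size factors and with library totals. All 3 libraries of resistant 1 lay on the same side of all 3 vehicle libraries in both batches for FECH, CPOX and ALAD.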

How the results depend on the processing

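Of 1008 alternative values of single members, 976 kept their direction and their side of the threshold, 25 lost the call, 7 gained it and 0 reversed. Of 114 alternative counts of members called, 106 stayed within 1.5 times the reported count. The count for the difference between batches was 4 and became 2 with DESeq2 and with RLE size factors, and 2 to 4 with 1 library left out, since ALAD and UROS lost their calls; FECH and CPOX kept theirs in each of these. The count for resistant 2 against resistant 1 was 3 and ranged from 2 to 5 with 1 library left out. All genes called in that comparison numbered 3706 and ranged from 2323 to 4814 with 1 library left out; it was 2323 and 2467 without resistant 1 replicates 3 and 1, and 2387 and 2431 without resistant 2 replicates 1 and 3. The replicate block changed the call of FECH in resistant 2 against resistant 1, to -0.35 (adjusted p = 0.0226, edgeR), and no other member call. Where a library left an arm with 2 samples, the spread was pooled over the groups of the fit. Of the genes in the 7 lists around the pathway, library totals changed 28 calls against vehicle and RLE size factors 3, with 0 changes of sign among genes called under both scalings. ALAS2 counts of 0 in vehicle allow only bounds at this depth.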
